A study of Mus musculus with 2 samples.

Results

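A set of 10 miRNA names of known non-canonical origin was followed in RNA recovered with biotin-labelled proteins of mouse keratinocytes. They were chosen by origin from the literature and by no cut on their values, but with earlier results of these data known. The set holds mmu-miR-320-3p and mmu-miR-484 from precursors that carry a cap, and mmu-miR-877-5p, mmu-miR-877-3p, mmu-miR-1224-5p, mmu-miR-1224-3p and mmu-miR-702-3p from mirtron-like precursors. It also holds mmu-miR-1839-5p and mmu-miR-1839-3p from a snoRNA-derived precursor, and mmu-miR-451a, which matures without Dicer. The prefix mmu, for mouse, is left out from here on. The whole series listed 1477 miRNA names, 1231 of them in replicate 1 and 1232 in replicate 2. Of the 10 names, 10 were listed in replicate 2 and 9 in replicate 1, where miR-451a was missing and was set to 0.

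The series holds 1 group of 2 replicate libraries. Skin keratinocytes grown in low-calcium medium carried an exogenous fusion of desmoplakin, a desmosomal plaque protein, with the biotin ligase BirA, and received biotin. The lysate was digested with DNase and RNase, the biotinylated proteins were captured with their RNA on streptavidin beads, and the RNA was ligated and sequenced to ask what Argonaute proteins do at the desmosomal plaque. Both libraries carry the fusion and the biotin, so no value here is an enrichment over a control. The labels do not say whether the replicates came from separate cultures, and the spread between them may be technical.

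Most miRNAs are cut out of a long transcript by the nuclear enzyme Drosha with its partner DGCR8, exported, cut again by Dicer and loaded into an Argonaute protein. The names followed here skip a step of this route. Transcription itself sets the end of a capped precursor, the spliceosome releases the hairpin of a mirtron as a short intron, some snoRNAs are cut by Dicer without Drosha, and pre-miR-451 is cut by Argonaute 2 in place of Dicer. For pre-miR-320 the cap is known to hinder loading of the 5p arm.

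Mature sequences were found for 8 of the 10 names in RefSeq (GRCm38.p6). They are shown 5′ to 3′ with the seed, bases 2 to 8, in capitals, because the seed is the part of a miRNA that leads pairing to targets.
miR-484: uCAGGCUCaguccccucccgau
miR-877-5p: gUAGAGGAgauggcgcaggg
miR-877-3p: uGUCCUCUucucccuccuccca
miR-1224-5p: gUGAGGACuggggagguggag
miR-1224-3p: cCCCACCUcuucucuccucag
miR-702-3p: uGCCCACCcuuuaccccgcucc
miR-1839-5p: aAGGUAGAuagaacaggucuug
miR-451a: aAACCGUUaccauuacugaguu
No other mature name among the 1679 in that table had the whole seed of any of these 8. The longest stretch that any of the 8 had in common with another mature name was 11 bases, in both miR-1224 arms, and the shortest such maximum was 8 bases, in miR-877-5p, miR-1839-5p and miR-451a. Between miRNAs of this set, 1 stretch of 6 letters within the seeds was shared, at a shifted place: the letters CCCACC stood at bases 2 to 7 of miR-1224-3p and at bases 3 to 8 of miR-702-3p.
The letters AGGUAG stood at bases 2 to 7 of miR-1839-5p and at bases 3 to 8 of let-7a-5p, which is shown for comparison.
let-7a-5p: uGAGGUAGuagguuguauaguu
These 6 letters lay within the seed of 14 of the 1679 mature names (0.834%), among them the 9 let-7 names with the let-7a-5p seed, miR-98-5p, miR-196a-5p and miR-196b-5p. The 9 let-7 names summed to 46459 counts per 1000000 miRNA counts (CPM) in replicate 1 and 43392 in replicate 2, against 73.6 and 66.7 for miR-1839-5p. miR-1839-5p thus brought few of the counts that carry these letters.

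The hairpins are printed here with the mature arms that the table holds in capitals, because the ends of the hairpin and the place of the arms differ between the routes.
Mir484: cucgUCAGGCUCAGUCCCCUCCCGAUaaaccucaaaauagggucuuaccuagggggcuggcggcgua
Mir877: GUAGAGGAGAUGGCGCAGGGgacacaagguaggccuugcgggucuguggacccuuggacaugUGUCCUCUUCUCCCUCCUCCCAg
Mir1224: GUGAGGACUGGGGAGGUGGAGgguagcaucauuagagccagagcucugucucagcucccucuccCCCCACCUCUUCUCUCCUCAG
Mir702: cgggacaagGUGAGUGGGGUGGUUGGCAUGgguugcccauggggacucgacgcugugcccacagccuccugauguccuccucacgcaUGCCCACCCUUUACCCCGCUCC
Mir1839: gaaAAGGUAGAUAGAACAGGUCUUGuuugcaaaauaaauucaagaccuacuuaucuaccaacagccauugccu
Mir451a: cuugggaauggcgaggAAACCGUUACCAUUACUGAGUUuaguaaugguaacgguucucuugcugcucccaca
The Mir877 hairpin (chr17:35960730-35960814, minus strand) and the Mir1224 hairpin (chr16:20604452-20604536, plus strand) both begin with GU and end with AG, the letters at the ends of most introns. Of 997 hairpin sequences in the table, 30 (3.01%) have both ends, 77 (7.72%) begin with GU and 237 (23.8%) end with AG. miR-877-5p and miR-1224-5p start at the first base of their hairpins, miR-1224-3p stops at the last base and miR-877-3p stops 1 base short of it. The Mir702 hairpin has neither end, but its 5p arm starts with GU at base 10. Mir877 lies within the span of the gene Abcf1, Mir1224 within Vwa5b2 and Mir702 within Plod3, each on the strand of that gene. Exons and introns were not looked up here.

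The mirtron-like arms were uneven in base content. Pyrimidines (C and U) made up 90.9% of miR-877-3p, 85.7% of miR-1224-3p and 81.8% of miR-702-3p, against a median of 50% over all 1679 mature names, and 0.119% of those names had a share as high as that of miR-877-3p. Of the opposite arms, miR-877-5p held 80.0% purines (A and G), miR-1224-5p 81.0% and miR-702-5p 66.7%, shares reached by 2.32%, 1.91% and 15.4% of all names. miR-484 held 68.2% pyrimidines and miR-1839-5p 68.2% purines.

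The miR-451a sequence lies elsewhere in its hairpin (chr11:78073170-78073241, plus strand). In the fold predicted by RNAfold it begins at base 17, runs through 18 bases of the 5′ side and takes in all 4 bases of the end loop. Of 1580 mature sequences placed on a folded hairpin, 10 (0.633%) covered a whole end loop in this way. Mir144, a canonical miRNA gene, lies 99 bases away on the same strand, and Mir451b overlaps it on the other strand. The remaining genes stand apart from each other. Mir484 (chr16:14159626-14159692, plus strand) lies 347 bases from Marf1, a gene on the minus strand. Mir320 (chr14:70443510-70443591) lies 38 bases from Polr3d, which encodes a subunit of RNA polymerase III. Mir1839 (chr7:81529916-81529988, plus strand) lies within the span of the lncRNA gene 2900076A07Rik on the same strand.

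The depth was 3776893 miRNA counts in replicate 1 and 4122955 in replicate 2. A count of 0 thus allows up to 3 counts, or 0.794 and 0.728 CPM. The counts are reads without molecular identifiers, and all intervals and limits cover counting error only. The libraries lay further apart than read sampling alone would put them (chi-square 70439, with 1162 degrees of freedom), and they were kept as separate samples. All 7 miRNAs of an epithelial marker list (miR-200a-3p, miR-200b-3p, miR-200c-3p, miR-141-3p, miR-429-3p, miR-205-5p and miR-203-3p) were listed in both libraries, with sums of 105854 and 106177 CPM.

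The 10 names took 1.610% of all miRNA counts in replicate 1, with a Wilson 95% interval of 1.598% to 1.623%, and 1.505% in replicate 2, with one of 1.493% to 1.517%. The mean was 1.56% ± 0.0745 (SD, n = 2). Nearly all of it came from capped precursors. miR-484 and miR-320-3p together made up 96.2% of the counts of the set in replicate 1 and 96.7% in replicate 2. The 5 mirtron-like names took 0.0412% ± 0.00862 of all miRNA counts, the 2 snoRNA-derived names 0.0143% ± 0.00112, and miR-451a was at or near 0 in both libraries.

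**Figure D1:**
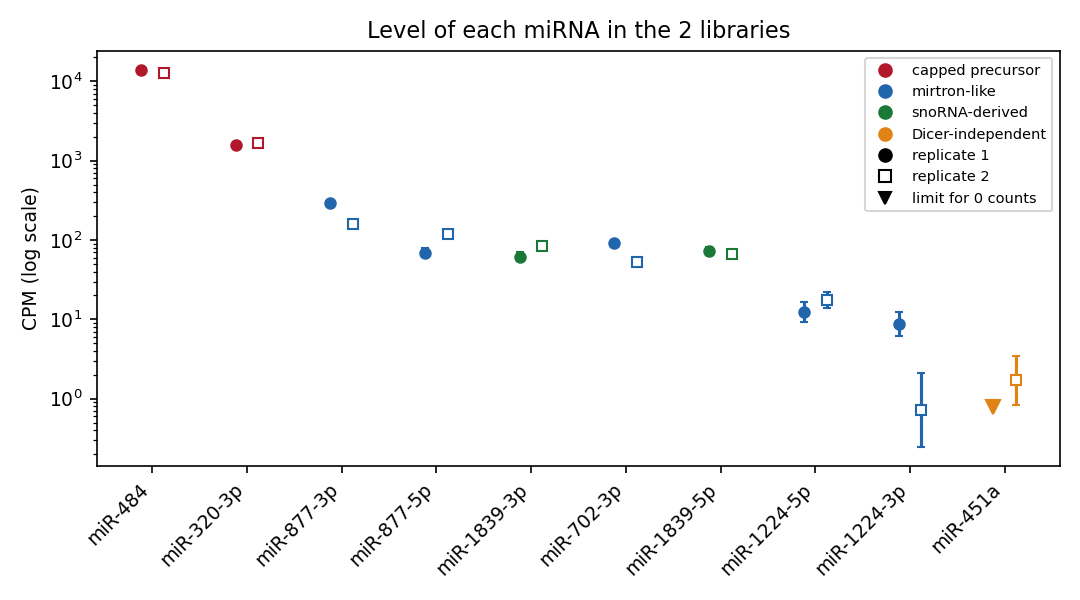
CPM of each of the 10 miRNAs on a log scale, with filled circles for replicate 1, open squares for replicate 2, Wilson 95% intervals as bars, and colours for the class of precursor. miR-484 and miR-320-3p lie above the other 8 names in both libraries, and miR-451a is drawn at the 0.794 CPM limit in replicate 1, where it had 0 counts.

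miR-484, from a capped precursor, had 52563 counts in replicate 1 and 53127 in replicate 2. These are 13917 and 12886 CPM, with a mean of 13401 ± 729 CPM (SD, n = 2). It ranked 16 among all names in replicate 1 and 15 in replicate 2. By mean CPM its neighbours were miR-31-3p (14271 ± 239) and miR-2137 (14065 ± 2000) above, and miR-29a-3p (12921 ± 295) and miR-24-3p (12207 ± 348) below. The gaps to miR-2137 and miR-29a-3p, 663 and 480 CPM, were smaller than the SD of miR-484.

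miR-320-3p, the other product of a capped precursor, had 5962 counts in replicate 1 and 6845 in replicate 2. Its level was 1579 CPM and 1660 CPM, with a mean of 1619 ± 57.8 CPM (SD, n = 2), and it ranked 76 and 74. Its neighbours by mean CPM were miR-221-3p (1689 ± 104), miR-19a-3p (1640 ± 60.9), miR-3470a (1574 ± 142) and miR-744-5p (1553 ± 69.4). miR-484 had 8.82 times the counts of miR-320-3p in replicate 1 and 7.76 times in replicate 2, a mean ratio of 8.29 ± 0.746, so the gap between the capped pair was wider than the spread between libraries.

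The most abundant mirtron-like name was miR-877-3p, with 1101 counts in replicate 1 and 664 in replicate 2. Its level was 292 and 161 CPM, with a mean of 226 ± 92.2 CPM (SD, n = 2). miR-320-3p had 5.42 and 10.3 times its counts. The other arm, miR-877-5p, had 262 and 492 counts, or 94.4 ± 35.3 CPM. The 3p arm was higher in both libraries, but in replicate 2 the 3p arm was lower and the 5p arm higher than in replicate 1, and the ratio of 2.78 ± 2.02 exceeded 1 by less than its SD. By mean CPM miR-877-3p stood among miR-361-5p, miR-21a-3p, miR-3473d and miR-466k, which ranged from 221 to 228 CPM. miR-877-5p stood among miR-192-5p, miR-322-3p, miR-872-5p and miR-669a-3-3p, from 89.4 to 95.4 CPM. None of these gaps exceeded the SD of the miR-877 arm.

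miR-702-3p had 344 counts in replicate 1 and 217 in replicate 2, or 71.9 ± 27.2 CPM (SD, n = 2). miR-1224-5p had 47 and 72 counts, or 15.0 ± 3.55 CPM. Its partner miR-1224-3p had 33 and 3 counts, or 8.74 CPM (Wilson 95% interval 6.22 to 12.3) and 0.728 CPM (0.247 to 2.14). The level of miR-1224-3p in replicate 2 is that of the limit which 0 counts allow.

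Both arms of the snoRNA-derived miR-1839 were found at like levels. miR-1839-5p had 278 counts in replicate 1 and 275 in replicate 2, or 70.2 ± 4.88 CPM (SD, n = 2), and miR-1839-3p had 232 and 347, or 72.8 ± 16.1 CPM. In order of mean CPM these names stood with miR-877-5p and miR-702-3p. miR-877-5p had 1.27 ± 0.204 times the counts of miR-1839-3p and was higher in both libraries. The order of miR-1839-3p, miR-702-3p and miR-1839-5p changed between the libraries, with ratios of 1.14 ± 0.654 and 1.01 ± 0.317 that did not differ from 1 beyond their spread. The names closest to these 3 in rank were miR-139-5p, miR-1191b-3p, miR-872-3p, miR-7044-5p, miR-30e-3p and miR-28a-3p, from 68.2 to 74.5 CPM. miR-1224-5p stood lower, and miR-1839-5p had 4.87 ± 1.48 times its counts.

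**Figure D2:**
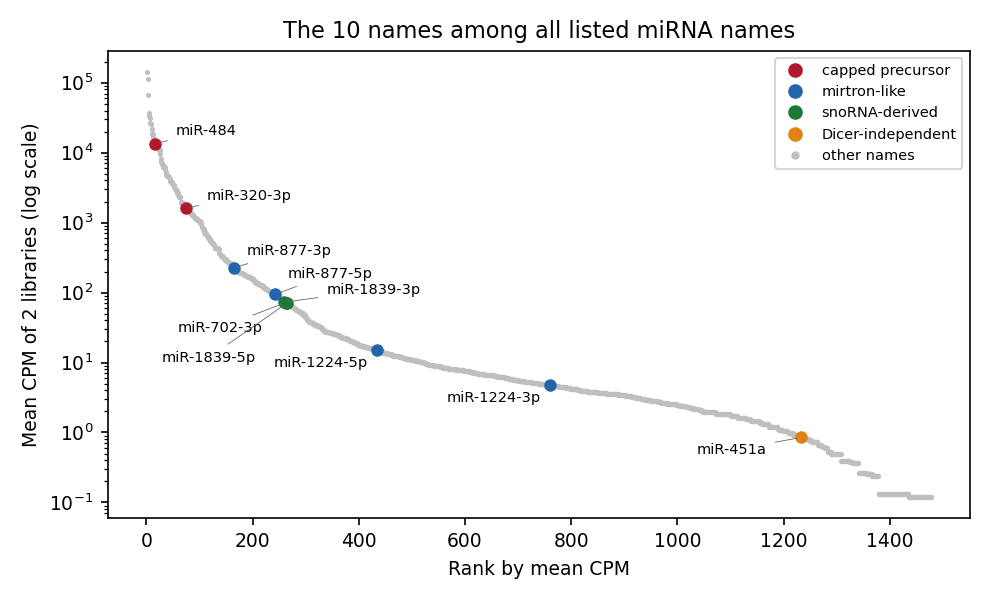
Mean CPM of 2 libraries on a log scale against rank for all listed names (grey), with the 10 names in the colours of their class. miR-484 ranks 16, miR-320-3p 75, the mirtron-like and snoRNA-derived names from 165 to 761, and miR-451a 1232.

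miR-451a, which is best known from red blood cells and their precursors, had 0 counts in replicate 1 and 7 in replicate 2. The latter is 1.70 CPM (Wilson 95% interval 0.822 to 3.50). In replicate 1, 0 counts allow up to 0.794 CPM by the limit of 3 counts. The Wilson 95% interval there reaches 1.02 CPM, so the Wilson intervals overlap. The level of miR-451a was therefore within a few counts of the detection limit. Its neighbour miR-144-3p had 0 and 24 counts, while miR-144-5p and miR-451b were listed in neither library. A blood marker list of 7 names, miR-451a included, had a sum of 6.09 CPM in replicate 1 and of 17.7 CPM in replicate 2. Of it, 3 names were listed in replicate 1 and 5 in replicate 2, and miR-486a-5p was at 0 in both. The others did not all run one way: miR-142-3p had 15 counts and 0, miR-142-5p 0 and 16, miR-150-5p 6 and 22, and miR-223-3p 2 and 4. The part of blood-derived RNA in the miR-451a counts was not tested.

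Other arms of hairpins, other non-canonical miRNAs, both miR-144 arms and miR-451b were followed as a list of 10 related names. Of these, 8 were listed in a library. miR-1983, which is derived from a tRNA, had 1830 counts in replicate 1 and 1566 in replicate 2, or 432 ± 74.0 CPM (SD, n = 2), above every mirtron-like name of the set. The mirtron-type miR-1981-5p had 517 and 740 counts, or 158 ± 30.1 CPM, and miR-1981-3p 170 and 111, or 35.97 ± 12.8 CPM. miR-1982-3p, also mirtron-type, had 24 and 19 counts, and miR-1982-5p 0 and 9. Like miR-877 and miR-1224, the Mir1981 and Mir1982 hairpins begin with GU and end with AG. So does the hairpin of miR-20a-5p, which is on none of the lists of non-canonical names here. At 4728 CPM, miR-20a-5p had the highest mean of 53 listed names from such hairpins.

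The mirtron-like names of the set were set beside the mirtron-type names from miR-6896 to miR-7094 in number, of which 331 were listed. Those 331 names together held a share of 0.211% ± 0.00526 (SD, n = 2), with a median of 3.57 CPM per name and a highest mean of 127 CPM, that of miR-6952-3p. miR-877-3p lay above all 331. miR-877-5p and miR-702-3p each lay below 2 of them, miR-1224-5p below 29 and miR-1224-3p below 127. The difference between these sets was not tested.

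Arm use ranged from one-sided to even. A hairpin entered the test if both arms were named and had at least 100 counts together in each library, which held for 164 hairpins, of which 4 give names of this set. The same arm passed an exact binomial test against equal arms (Benjamini-Hochberg adjusted p under 0.05) in both libraries for 3 of these 4, and for 150 of all 164 hairpins (91.5%). With 4 hairpins, the share of the set cannot be called near to or apart from that of all hairpins. All 3 favoured the 3p arm. For miR-320 and miR-702 only the 3p name belongs to the set, so this direction is no independent trait of the set. By mean 5p share, without a test, the 5p arm led in 105 of the 164 (64.0%).

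miR-320 was the most one-sided. miR-320-5p had 0 counts in replicate 1 and 10 in replicate 2, so the 3p arm held 100% (Wilson 95% interval 99.94% to 100%) and 99.9% (99.7% to 99.9%) of the hairpin. miR-877 gave 80.8% of its counts from the 3p arm in replicate 1 (78.6% to 82.8%) and 57.4% in replicate 2 (54.6% to 60.3%), with adjusted p = 2.87e-122 and 5.07e-07 in the exact binomial test. miR-702 gave 68.5% from the 3p arm in replicate 1 (64.3% to 72.4%) and 100% in replicate 2 (98.3% to 100%), because miR-702-5p had 158 counts in replicate 1 and was at 0 in replicate 2.

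miR-1839 had no arm that led in both libraries. The 5p share was 54.5% in replicate 1, with a Wilson 95% interval of 50.2% to 58.8%, and 44.2% in replicate 2, with one of 40.4% to 48.1%, on opposite sides of 50%, with adjusted p = 0.0476 and 0.00454 in the exact binomial test. It was 1 of 8 hairpins among the 164 (4.88%) whose leading arm was not the same. miR-1224, with 80 and 75 counts, was too low for the test. Its 5p share was 58.8% in replicate 1 (47.8% to 68.9%) and 96.0% in replicate 2 (88.9% to 98.6%).

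**Figure D3:**
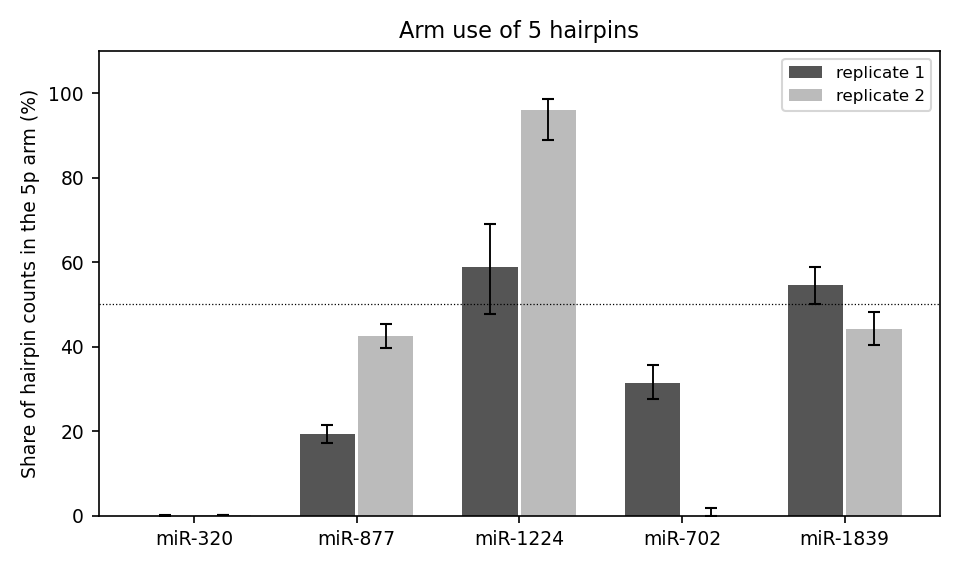
Share of the counts of a hairpin that came from the 5p arm, in percent, for 5 hairpins, with dark bars for replicate 1, light bars for replicate 2 and Wilson 95% intervals. miR-320 is near 0% in both libraries, miR-877 and miR-702 stay below the dotted 50% line, miR-1224 lies above it, and miR-1839 crosses it from 54.5% to 44.2%.

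The arm shares also moved between the libraries. By Fisher's exact test on the counts of both arms, a test chosen after the values were seen, all 4 hairpins differed between the replicates at an adjusted p under 0.05, where 68.3% of the 164 hairpins did. The 5p share of miR-877 moved by 23.3 percentage points (adjusted p = 1.82e-35, Fisher's exact test), that of miR-702 by 31.5 (adjusted p = 1.15e-27, Fisher's exact test), that of miR-1839 by 10.3 and that of miR-320 by 0.146, against a median of 1.62 points over the 164 hairpins. Of the other hairpins, 11 moved as far as miR-877 and 6 as far as miR-702. The hairpins were not matched for count or for how one-sided they were, so these ranks do not set miR-877 and miR-702 apart from like hairpins. These p-values take each read as independent and compare 2 libraries of 1 condition, not conditions.

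The same holds for the levels of single names. Of the 10 names, 9 had a mean of at least 10 counts and were tested between the libraries with an exact two-sided binomial test adjusted over all 1002 names at that level. Of the 9, 7 passed an adjusted p of 0.05, where 70.6% of all 1002 names did, so that the set was near the background. In replicate 2, 3 of the 7 were higher and 4 were lower. Of the 707 names that passed among all 1002, 363 were higher (36.2% of the 1002) and 344 lower (34.3%). The median absolute log2 ratio was 0.49 over the 9 names and 0.83 over all 1002. The latter ranks 149 names at 0 in a library as the largest ratios. The names were not matched for count, so these medians do not show that the set was steadier. A stricter setting divided each count by 20.7, an index of how far the variance of names exceeds their mean here. The index came from names averaging 10 to 300 counts, and the capped pair and both miR-877 arms lie above that range. With this setting none of the 9 passed (2 had an unadjusted exact binomial p under 0.05) and 16 of all 1002 names did.

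**Figure D4:**
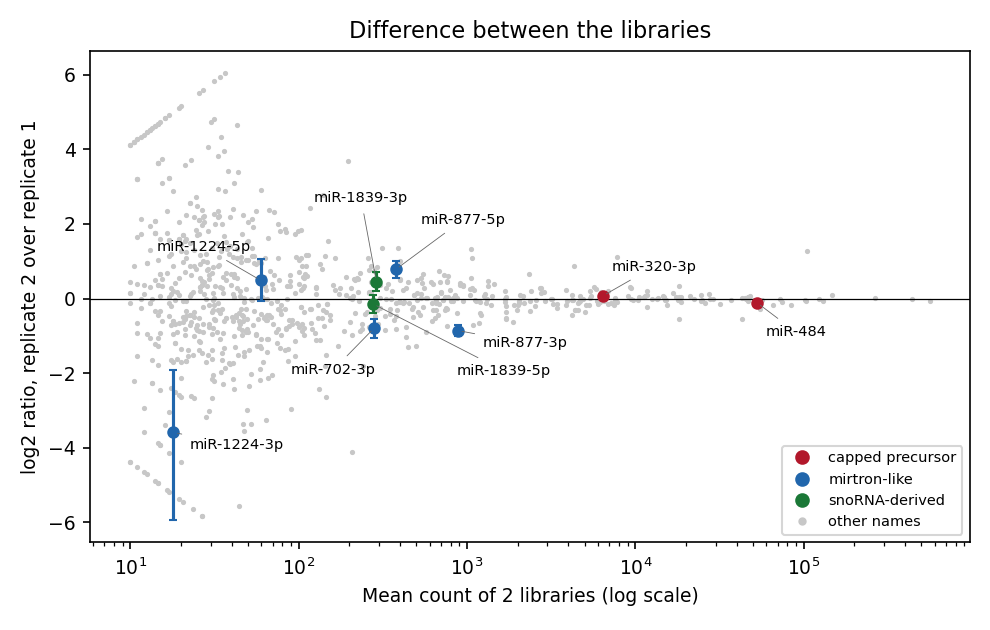
The log2 ratio of replicate 2 over replicate 1, scaled by the library totals, against the mean count on a log scale, with exact 95% intervals for the 9 names tested and grey points for the other names with counts in both libraries (149 tested names with 0 in a library have no ratio). The capped pair lies close to 0, and miR-1224-3p lies at -3.59 among widely spread names of low count.

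For the capped pair the libraries were close. On the log2 scale, replicate 2 over replicate 1 gave -0.11 for miR-484 (95% interval -0.13 to -0.09, adjusted p = 2.24e-34, exact binomial test) and 0.07 for miR-320-3p (0.02 to 0.12, adjusted p = 0.00702). Names within 1.5 times the same mean count numbered 15 for miR-484 and 35 for miR-320-3p. Their log2 ratios had an SD of 0.16 and 0.30, which neither ratio exceeded. Of those names, 80.0% and 28.6% had a smaller absolute ratio, so miR-484 moved more than most names of like count.

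The arms of miR-877 moved in opposite directions. miR-877-5p had a log2 ratio of 0.78 (95% interval 0.56 to 1.004, adjusted p = 3.64e-12, exact binomial test) and miR-877-3p one of -0.86 (-0.997 to -0.72, adjusted p = 3.57e-33). The SD over names of like count was 0.57 and 0.41, so both ratios exceeded it. Of those names, 82.6% and 96.6% had a smaller absolute ratio, so moves as large as that of miR-877-5p were not rare. In the other mirtron-like names the ratio was -0.79 for miR-702-3p (-1.04 to -0.54), -3.59 for miR-1224-3p (-5.94 to -1.91) and 0.49 for miR-1224-5p (-0.06 to 1.05). Over names of like count with counts in both libraries the SD was 0.90, 2.47 and 1.46 for these 3. For miR-1224-3p that SD leaves out names at 0 in a library (it covers 210 of 312 names). Of all names of like count, 79.1%, 54.2% and 26.3% had a smaller absolute ratio, so none of these 3 stood apart. By this share miR-702-3p lay close to miR-877-5p. The adjusted p of miR-1224-5p was 0.107 by the exact binomial test.

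Of the snoRNA-derived arms, miR-1839-3p had a log2 ratio of 0.45 (95% interval 0.21 to 0.70) and miR-1839-5p one of -0.14 (-0.39 to 0.10), with adjusted p = 0.000394 and 0.298 by the exact binomial test. Names of like count had an SD of 0.91 and 0.92, wider than either ratio. Of the related names, 6 were tested and 5 passed, miR-144-3p among them, where 70.6% of all 1002 names passed. In replicate 2, 2 of the 5 were higher and 3 lower. miR-702-5p was the most uneven of the related names tested, at least 57.5-fold lower in replicate 2, where its 0 counts were taken as 3 counts.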

How the data were processed

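Mature miRNA names were counted in 2 streptavidin pulldown libraries of 1 group. The authors deposited a table per library of whole-number counts per name, without normalisation, as the differing totals show. cutadapt, Novoalign and the build mm10 are named per the submitters' processing notes. How PCR copies and reads matching several names were handled, which miRNA reference served, and whether chimeric reads were counted apart are not given in the sources used here. Ligation and amplification can shift the reads of each miRNA, so ratios between names are ratios of reads.

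Missing names were set to 0. Rows that name no miRNA (0.00265% and 0.000218% of the counts) stayed out. CPM was computed from the total miRNA counts. The tests were exact binomial tests and Fisher's exact tests with Benjamini-Hochberg adjustment over all names or hairpins tested, at 0.05. In 1002 simulated names, with 200 changed 2-fold, the binomial test found 60.0% of these, none in the wrong direction. The simulated counts held read sampling only, without the wider spread between these libraries, so this does not show how the test performs on them. TMM factors (edgeR 4.0.16) and DESeq2 1.42.0 size factors (R 4.3.3) were alternatives. Sequences and positions came from RefSeq tables of GRCm38.p6, the assembly that mm10 names, which held 83.3% of the 1477 listed names. Hairpins were folded with RNAfold 2.7.2. Python 3.11.15, scipy 1.17.1 and matplotlib 3.10.9 were used. The names followed, the lists and the tests were chosen with earlier results of these data known. The text names all 10 members, their other arms, the related and marker lists, and names sharing a seed stretch. Neighbours in rank of members averaging at least 100 counts are named too. It also names miR-6952-3p, miR-20a-5p, let-7a-5p, miR-98-5p, miR-196a-5p and miR-196b-5p, which were named after their values were seen.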

Additional observations from a re-analysis of the deposited data

How the results depend on the processing

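The share of 1.56% for the 10 names was 1.82% in a total without the most abundant miRNA, which follows from the smaller total. Leaving out each replicate gave 1.505% to 1.610%, and TMM factors, DESeq2 size factors and drawing down the deeper library moved it by less than the SD. The number of names that differed between the libraries was 254 when only names averaging 100 counts or more entered, which leaves fewer names, and 16 with counts divided by the variance-to-mean index, where 0 of the 9 names tested passed. That divisor was taken from the same libraries, so a drop was built in. The 6 names with a called ratio that still had counts in both libraries kept their direction there. Hairpins with a leading 5p arm numbered 172 at 20 counts and 59 at 1000, where more and fewer were tested. At 20 counts, an alternative chosen after seeing the data, miR-1224 entered and all 5 hairpins differed in arm share, as did 63.4% of the 309 hairpins tested. No log2 ratio between the libraries reversed in the scalings, count minimums and thresholds run. The ratio of miR-1839-3p over miR-702-3p ranged from 0.674 to 1.60, and that of miR-702-3p over miR-1839-5p from 0.789 to 1.24, with each replicate left out, so their order turned. Library differences cannot be computed without either replicate. No paired analysis was possible because the series has a single group.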
